A study of Mus musculus with 6 samples.

Results

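The NRF2 pathway is described here through histone H3 acetylation (H3ac) at 10 genes: the regulators Nfe2l2 and Keap1, the enzymes Hmox1, Nqo1, Gclc, Gclm and Txnrd1, and the superoxide and peroxide scavengers Sod1, Sod2 and Cat. A region of the deposited H3ac table was taken when its mm10 interval overlapped the body of one of these genes, extended by 5 kb on both sides (GENCODE vM21). This gave 14 of the 24431 regions. None of the 10 genes lacked a region. Of the 14 regions, 13 carried the code AC+O+Y, as did 80.6% of all regions, and 1 carried the code Y, as did 4.66% of all regions. The letters were read as OldAcetate, Old and Young, which the labels do not define.

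NRF2, the product of Nfe2l2, is a transcription factor that is normally bound by KEAP1 and handed to a CUL3 ubiquitin ligase for degradation. Electrophiles and oxidants modify KEAP1, NRF2 then escapes degradation, enters the nucleus, pairs with a small MAF protein and binds antioxidant response elements at genes for glutathione synthesis, thioredoxin reduction, quinone reduction and haem breakdown. Acetylation of H3 is a mark of open chromatin at active promoters and enhancers, and acetate can be turned into acetyl-CoA, the donor of the acetyl group.

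The study asked how age changes metabolism, chromatin and stemness in mouse mesenchymal stem cells (MSCs). H3ac was profiled by CUT&RUN, in which an antibody directs a nuclease to cut out the marked chromatin for sequencing, from about 100K cultured cells per library. The 3 groups held 2 libraries each. The Young group was taken from mice aged 3 to 5 months and the Old group from mice aged 18 to 22 months, both left untreated. In the OldAcetate group the donors were likewise 18 to 22 months old, and 5 mM sodium acetate was added to the culture over 3 days. All the cultures were kept at 2% oxygen in αMEM with 10% FBS and 1% penicillin/streptomycin. The labels do not say whether the 2 libraries of a group came from separate animals, so the p-values measure the spread between these libraries, which may be technical.

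The values are RPM, reads normalized to the total of each library, and each was a whole multiple of the value of 1 read, so reads could be counted. Library totals ranged from 2163351 to 3039481 reads, of which 45.9% and 49.9% lay in regions in Old and from 56.3% to 64.8% in the other libraries. Each of the 14 regions held 11 to 384 reads per library. Over all 24431 regions the median log2 change of the values as given was -0.35 for Old vs Young, 0.24 for OldAcetate vs Old and -0.11 for OldAcetate vs Young. A shift shared by all regions thus moved with the groups, and its part in the values as given was not tested. Changes are therefore stated on both scales: as given, and scaled, which subtracts from each library its median deviation from the region means. Yeast DNA was added to the reactions, and how it entered the values is not given in the sources used here. Lower H3ac in all cells and fewer cells carrying the mark cannot be told apart in these bulk libraries.

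The labelled cell type was checked against fixed markers. All 11 MSC and stromal markers had a region over the gene start, Pdgfra and Ly6a (Sca-1) among them. Of 8 haematopoietic markers 2 did (Spi1 and Cd68, with 1.78 and 2.19 RPM per kb), with no region at Ptprc, Itgam, Adgre1 and Cd3e. Csf1r and Cd79a had a region away from the start, with 3.06 and 3.60 RPM per kb. Of 5 endothelial markers 0 had a region over the start, with no region at Cdh5 and Tek. Pecam1, Kdr and Tie1 had regions elsewhere, the highest of each with 1.97, 2.86 and 2.57 RPM per kb. The stromal markers ranged from 1.88 (Eng) to 3.70 RPM per kb (Cxcl12). The summed RPM of each marker list was lowest in Old. It ranged from 754 to 799.7 in Old against 929.7 to 1096 in Young and 964 to 975 in OldAcetate for the stromal list, from 81.4 to 86.3 against 96.0 to 115 and 91.7 to 94.3 for the haematopoietic list, and from 44.5 to 49.5 against 64.1 to 69.4 and 58.1 to 60.1 for the endothelial list. The part of these levels in the results below was not tested.

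The letters of the antioxidant response element were searched in the regions as TGACNNNGC on both strands. When the NNN are TCA the match also holds TGACTCA, the letters of the AP-1 site, and can be read by both families of factors. The windows below were drawn around these longer TGACTCAGC matches. Capitals mark TGACNNNGC matches, each of which is also TGACTCAGC except the first in the second window, with all the bases given on the plus strand of GRCm38, where a match on the minus strand reads in reverse, from GC to GTCA. The first 2 windows lie before Hmox1, at chr8:75083929-75084034 and chr8:75089678-75089778, the next 2 before Gclc, at chr9:77750725-77750773 and chr9:77752498-77752546, and the last in an intron of Sod2, at chr17:13010022-13010070. The Hmox1 and Gclc windows are intergenic. They were chosen after the matches were seen.

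Hmox1, 9.64 kb before the gene start: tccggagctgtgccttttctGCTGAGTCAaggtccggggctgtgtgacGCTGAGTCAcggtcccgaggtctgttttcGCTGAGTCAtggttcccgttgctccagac

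Hmox1, 3.89 kb before the gene start: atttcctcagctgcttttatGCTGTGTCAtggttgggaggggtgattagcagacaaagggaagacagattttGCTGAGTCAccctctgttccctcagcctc

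Gclc, 3.79 kb before the gene start: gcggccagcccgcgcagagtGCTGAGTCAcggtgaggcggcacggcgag

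Gclc, 2.01 kb before the gene start: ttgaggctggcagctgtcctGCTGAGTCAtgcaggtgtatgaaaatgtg

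Sod2, 3.20 kb after the gene start: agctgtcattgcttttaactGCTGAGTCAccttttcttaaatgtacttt

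The fourth region with TGACTCAGC was that of Sod1, with 1 match 0.27 kb after the gene start. In all, 8 such matches lay in 4 of the 14 regions, against 14.3% of all regions with at least 1. The Hmox1 region held 4 of the 8. Of the 478 regions of 27.5 to 37.5 kb, which are near it in length, 50.0% held at least 1 match and 1.67% held 4 or more. The first Hmox1 window holds 3 matches within 100 bp, as did 3 of all 24431 regions (0.0123%). The shorter pattern TGACNNNGC was common: it had 71 matches in 12 of the 14 regions, against 83.3% of all regions with a match, and 4.38 matches per 10 kb of the member regions summed against 3.71 per 10 kb of all regions summed. A match describes letters and not a bound site, and one H3ac value covers a whole region, so the values do not resolve the windows.

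Near the start sites themselves, 8 of the 10 genes had an entry in the set of RefSeq promoters used here (GRCm38.p6). Hmox1 and Gclc had no entry in that set, so they were not counted. Of the 8, 4 (Nfe2l2, Gclm, Txnrd1 and Sod1) held TGACNNNGC in the 250 bases before a RefSeq start, against 11.5% of the 27025 genes with an entry. The regulator Nfe2l2 and the target Gclm are printed whole, in the direction of transcription. In both the region spans the start, as it does at Sod1, whose stretch is not printed. The Nfe2l2 stretch is chr2:75704664-75704913 on the minus strand and overlaps an exon of the neighbouring transcript E030042O20Rik. The Gclm stretch is chr3:122245307-122245556 on the plus strand and is intergenic. For Txnrd1 the match lies in an annotated intron, before an internal RefSeq start, and is shown at chr10:82859094-82859142.

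Nfe2l2 promoter: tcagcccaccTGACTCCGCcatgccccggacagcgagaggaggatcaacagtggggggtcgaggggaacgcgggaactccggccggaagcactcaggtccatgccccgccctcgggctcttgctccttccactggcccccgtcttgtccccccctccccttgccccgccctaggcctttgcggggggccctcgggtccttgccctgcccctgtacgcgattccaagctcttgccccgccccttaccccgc

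Gclm promoter: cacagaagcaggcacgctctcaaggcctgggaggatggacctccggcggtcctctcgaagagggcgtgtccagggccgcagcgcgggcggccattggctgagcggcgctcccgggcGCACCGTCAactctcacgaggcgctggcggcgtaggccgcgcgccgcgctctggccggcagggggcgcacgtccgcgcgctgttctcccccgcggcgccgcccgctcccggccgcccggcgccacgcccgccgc

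Txnrd1 internal promoter: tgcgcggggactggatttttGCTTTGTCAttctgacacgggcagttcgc

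**Figure D1:**
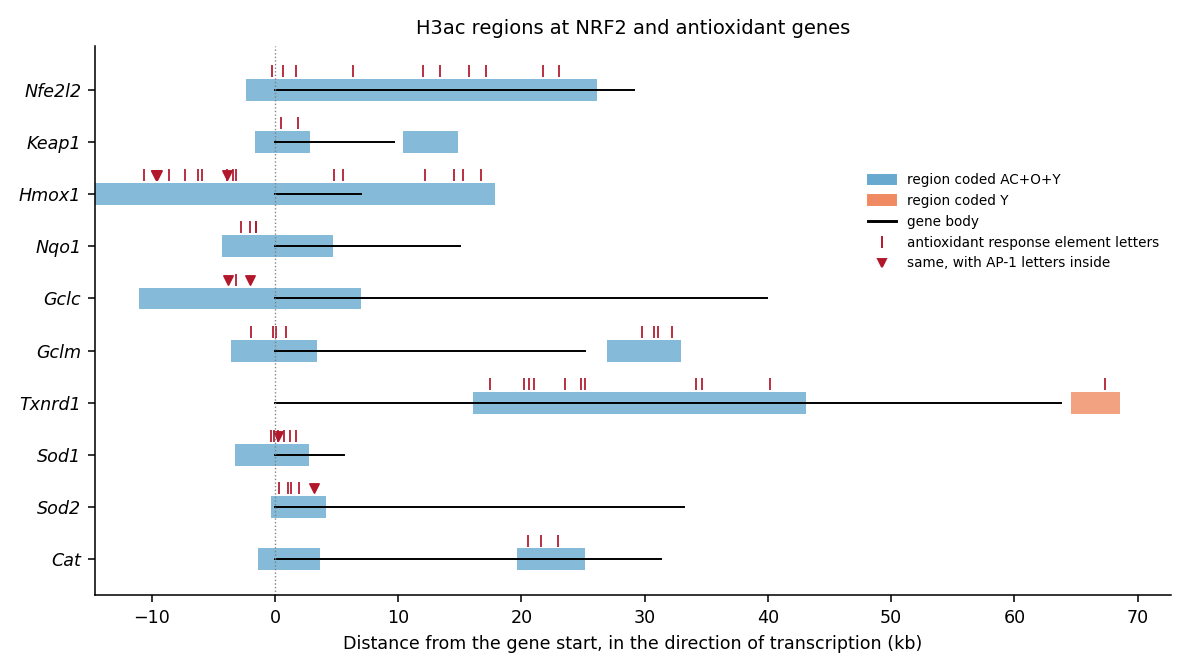
Position of the 14 H3ac regions (bars) relative to the start of their gene, in kb along the direction of transcription, with the gene body as a black line and TGACNNNGC matches as red ticks (triangles where the match is TGACTCAGC). The Hmox1 region of 32.5 kb covers the whole gene with 12 of its 18 matches before the gene start, while the Txnrd1 region of 27.0 kb begins 16.1 kb after the first start site.

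Broad acetylation was seen at 4 of the genes. The regions at Hmox1 (32.5 kb), Nfe2l2 (28.5 kb), Txnrd1 (27.0 kb) and Gclc (18.0 kb) were 18 kb or longer, as were 10.4% of the 9750 regions over a protein-coding start site, whose median length was 5500 bp. The cut of 18 kb equals the length of the Gclc region, so it is not independent of these regions. The Nfe2l2 region, chr2:75678501-75707000, covered 89.7% of the gene (ENSMUSG00000015839.6), from 2.36 kb before its start. The Hmox1 region, chr8:75079001-75111500, reached from 14.6 kb before the start to 17.9 kb after it, so it also holds the start of Mcm5, a replication helicase subunit, and its level belongs to both genes. The Gclc region, chr9:77743501-77761500, extended mostly upstream, from 11.0 kb before the start to 6.96 kb after it.

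A region covered the gene start at 9 of the 10 genes. The exception was Txnrd1, whose region chr10:82850001-82877000 covered 6 of the 8 annotated transcript starts but not the first, and which also holds the start of Eid3. The other regions over gene starts were those of Keap1 (chr9:21236501-21241000), Nqo1 (chr8:107398501-107407500), Gclm (chr3:122242001-122249000), Sod1 (chr16:90217501-90223500), Sod2 (chr17:13006501-13011000) and Cat (chr2:103481501-103486500). A further region lay within Cat, at chr2:103460001-103465500, in exons and introns. The remaining 3 lay outside the gene bodies, 0.73 kb past the end of Keap1 (chr9:21224501-21229000), 1.77 kb past the end of Gclm over the start of Dnttip2 (chr3:122272501-122278500), and 0.79 kb past the end of Txnrd1 in intergenic DNA (chr10:82898501-82902500). The last is the region coded Y.

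Per kb of region, the mean level over the 6 libraries was highest at the Cat start (4.00 RPM per kb), which exceeded 87.0% of the start-site regions. Next came Nfe2l2 with 3.82 RPM per kb, Keap1 with 3.65 and Sod2 with 3.61, then Gclm with 3.13, Sod1 with 2.93, Gclc with 2.86, Hmox1 with 2.70 and Nqo1 with 2.67. The Txnrd1 region was lowest with 2.13 RPM per kb, above 4.12% of the start-site regions. The median was 3.07 RPM per kb over the start-site regions and 2.78 over the 14 regions. Neighbours in this order had overlapping library values: the Cat start ranged from 2.87 to 4.59 RPM per kb, Nfe2l2 from 3.21 to 4.43, Hmox1 from 2.36 to 3.41 and Nqo1 from 2.00 to 3.18. The Txnrd1 region varied least, from 1.93 to 2.33 RPM per kb. Repeats made up a median of 29.8% of the bases of the 14 regions against 18.9% in all regions, and GC content was alike, with medians of 47.0% and 46.2%.

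**Figure D2:**
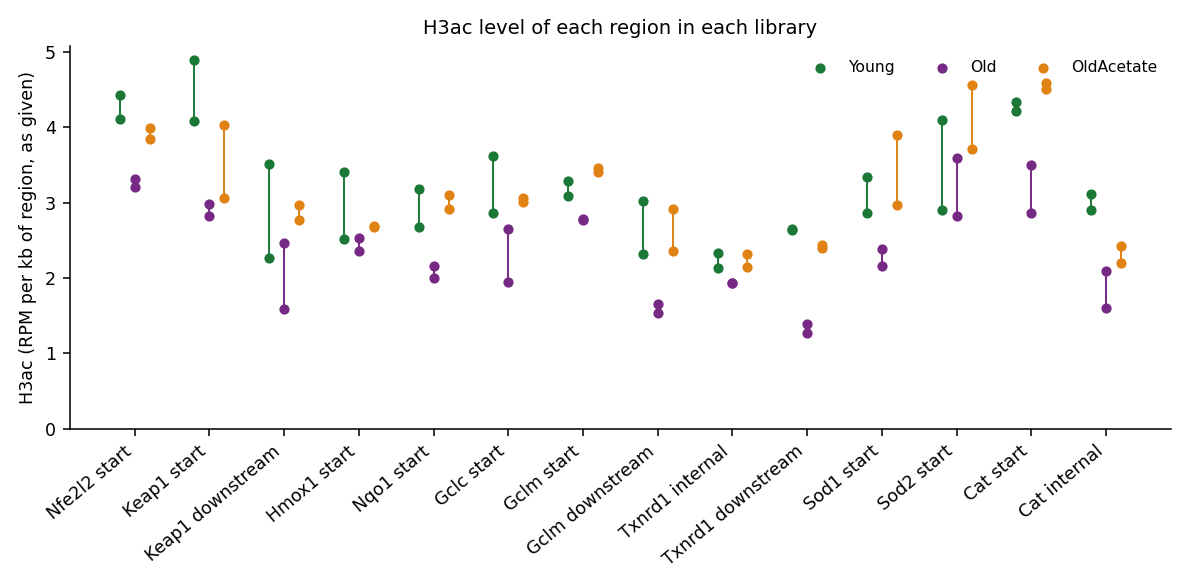
H3ac level in RPM per kb of region, values as given, for each of the 14 regions; each point is 1 of the 2 libraries of a group, joined by a line, in green for Young, purple for Old and orange for OldAcetate. Both Old libraries lie under both OldAcetate libraries at each of the 14 regions, as at 47.1% of all regions. They lie under both Young libraries at 11 of the 14, as at 60.2% of all regions.

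Across the 14 regions the summed level was 559.96 and 474.6 RPM in the Young libraries, 389.7 and 401.3 RPM in Old, and 499.3 and 488.8 RPM in OldAcetate. The Old libraries were the lowest and did not overlap the other groups, whereas the OldAcetate libraries lay between the Young libraries. The share of reads in all 24431 regions was also lowest in Old, at 49.9% and 45.9%. It was 64.8% and 57.8% in Young and 57.3% and 56.3% in OldAcetate. Young replicate 1 was the highest library at 9 of the 14 regions, as at 49.0% of all regions. Old replicate 1 was the lowest at 9 of the 14, against 26.9% of all regions, and Old replicate 2 at the other 5, against 48.4% of all regions.

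To ask what age does to the mark, Old was compared with Young. On the scaled values 0 of the 14 regions passed the test (limma, Benjamini-Hochberg adjusted p under 0.05), and 0.00819% of all regions did. None reached an unadjusted p under 0.05 either, a level reached by 5.54% of all regions, and edgeR on the recovered reads with RLE factors called 0 (background 0.0205%). The lowest adjusted p among the 14 was 0.894. The median scaled change was -0.10 log2, with 4 regions higher and 10 lower (50.8% of all regions were lower), against -0.0045 over all regions, and without Old replicate 1 it was 0.046. Without overlap between the groups 2 regions were higher (background 16.9%) and 4 lower (background 17.1%). With 2 libraries against 2, an exact permutation test of a single region cannot go below p = 0.333.

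On the values as given the 14 regions had a negative change, as had 92.1% of all regions, and the median was -0.45 log2. At 11 of them both Old libraries lay under both Young libraries (background 60.2%), and at 0 both lay above (background 1.29%). The groups overlapped at Hmox1, Sod2 and the region past Keap1. The limma test called 2 of the 14 lower, Nfe2l2 and Gclc (background 9.5%), and 0 higher (background 0.0287%), and edgeR without factors called the same 2 (background 10.3%). Both calls were lost when single libraries were left out, and the share of all regions called lower moved as well. Without Young replicate 1, 0 of the 14 were called (background 0.0368%), without Old replicate 1, 0 (background 13.3%), and without OldAcetate replicate 1 or 2, 0 (backgrounds 2.62% and 2.95%). Without Old replicate 2, 1 was called, Gclc (background 2.01%), and without Young replicate 2, 3 were, Nfe2l2, Gclc and Hmox1 (background 8.69%).

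To ask what acetate does in old cells, OldAcetate was compared with Old, which shares the Old libraries with the first comparison. On the scaled values 0 of the 14 regions passed the limma test (background 0.0%), 0 had an unadjusted p under 0.05 (6.24% of all regions), and edgeR with RLE factors called 0. The median scaled change was 0.14 log2, with 12 regions higher and 2 lower, against 0.0018 over all regions and 0.05 over the start-site regions. Without Old replicate 1 it was 0.035. Of all regions 49.7% were lower, and of the start-site regions 39.6%. Hmox1 and the internal Txnrd1 region were the 2 with a negative scaled change. Without overlap 4 regions were higher on the scaled values (Nqo1, the Cat start and the regions past Gclm and Txnrd1, background 16.7%) and 1 was lower (Hmox1, background 17.2%). On the values as given both OldAcetate libraries lay above both Old libraries at 14 of 14 regions (background 47.1%) and under them at 0 (background 3.46%). They lay above at 5729 of the 9750 start-site regions. The median was 0.38 log2 against 0.24 over all regions and 0.29 over the start-site regions. Even so 0 of the 14 passed the limma test on the values as given (background 0.311%), with 7 higher at an unadjusted p under 0.05 (background 17.7%) and a lowest adjusted p of 0.161, and edgeR without factors called 0 (background 0.086%).

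OldAcetate was also set against Young. On the scaled values 0 of the 14 regions passed (background 0.0%), 0 had an unadjusted p under 0.05 (5.08% of all regions), and edgeR with RLE factors called 0. The median scaled change was 0.11 log2, with 9 regions higher and 5 lower, against 0.0015 over all regions and 0.05 over the start-site regions. Of all regions 49.7% were lower, and of the start-site regions 39.2%. Without overlap 6 regions were higher (background 17.7%) and 1 was lower, the region within Cat (background 18.1%). On the values as given the median was -0.0045 log2 against -0.11 over all regions and -0.06 over the start-site regions. There 2 regions were higher without overlap, the Gclm and Cat starts (background 7.6%), and 4 were lower, those at Nfe2l2, the Keap1 start, past Txnrd1 and within Cat (background 29.8%).

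**Figure D3:**
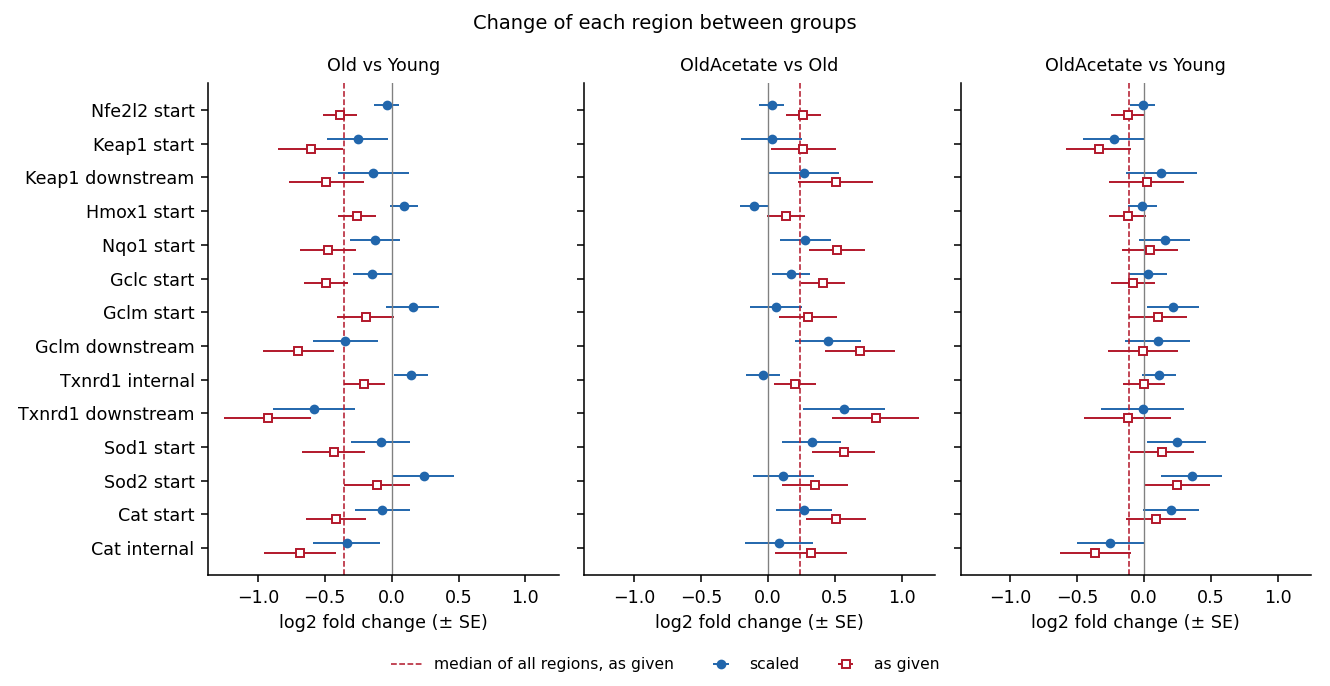
Fitted log2 fold change ± SE of the 14 regions in the 3 comparisons, scaled (blue circles) and as given (open red squares), with the median of all regions as given as a dashed line. The scaled changes run from -0.58 to 0.24 for Old vs Young and from -0.10 to 0.57 for OldAcetate vs Old. The region past Txnrd1 lies at the far end of both. The red squares are negative for Old vs Young and positive for OldAcetate vs Old at each of the 14 regions. Of all regions, 92.1% were negative as given in the first comparison and 16.8% in the second.

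The regulators were followed first. Nfe2l2, which encodes NRF2, measured 126 and 117 RPM in Young, 91.5 and 94.3 RPM in Old, and 114 and 109.7 RPM in OldAcetate. The replicates were close and, as given, the 3 groups did not overlap, with Old lowest and OldAcetate between. Each pair of groups overlapped on the scaled values. Without overlap as given, Old lay under Young at 60.2% of all regions, and OldAcetate above Old at 47.1% and under Young at 29.8%. The change for Old vs Young was -0.39 log2 as given (SE 0.13, limma adjusted p = 0.041) and -0.04 scaled (SE 0.10, adjusted p = 0.981), so the difference as given was about that of all regions. For OldAcetate vs Old it was 0.27 as given (adjusted p = 0.257) and 0.03 scaled (adjusted p = 0.984).

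Keap1, which encodes the sensor that holds NRF2 back, measured 22.0 and 18.4 RPM at its start in Young, 13.4 and 12.7 RPM in Old, and 18.1 and 13.8 RPM in OldAcetate. Both Old libraries were the lowest, and the OldAcetate libraries differed from each other, with 1 close to Old. The change for Old vs Young was -0.61 log2 as given (SE 0.24, adjusted p = 0.082) and -0.26 scaled (SE 0.23, adjusted p = 0.940). The region past the end of Keap1, which overlaps the antisense gene Gm16754, measured 15.8 and 10.2 RPM in Young, 11.1 and 7.16 RPM in Old, and 12.4 and 13.3 RPM in OldAcetate. Its Young and Old libraries overlapped.

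Among the haem and quinone enzymes, Hmox1 encodes the inducible haem oxygenase, which breaks haem down to biliverdin, iron and carbon monoxide. Its region measured 111 and 81.7 RPM in Young, 82.3 and 76.8 RPM in Old, and 87.0 and 87.6 RPM in OldAcetate. Young replicate 1 stood above the other 5 libraries, and the second Young library lay within the range of Old. The Old vs Young change was -0.26 log2 as given (SE 0.14, adjusted p = 0.179), 0.09 scaled (SE 0.11), and -0.05 scaled without Young replicate 2. The change as given was -0.04 without Young replicate 1 (adjusted p = 0.906) and -0.48 without Young replicate 2 (adjusted p = 0.029), which passed the threshold. For OldAcetate vs Old it was 0.13 as given, the smallest of the 14 changes in that comparison, and -0.10 scaled (SE 0.11, adjusted p = 0.932).

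Nqo1 encodes the quinone reductase NAD(P)H dehydrogenase and is a standard readout of NRF2 activity. Its region measured 28.6 and 24.1 RPM in Young, 18.0 and 19.5 RPM in Old, and 26.2 and 27.9 RPM in OldAcetate. As given, Old was separate from both other groups, and the OldAcetate libraries fell between the Young ones. On the scaled values Old and Young overlapped, and both OldAcetate libraries lay above both Young libraries. The Old vs Young change was -0.48 log2 as given (SE 0.21, limma adjusted p = 0.107) and -0.13 scaled (SE 0.19, adjusted p = 0.967). The OldAcetate mean was 144% of the Old mean, a change of 0.52 log2 as given (SE 0.21, adjusted p = 0.184) and 0.28 scaled (SE 0.19, adjusted p = 0.870).

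Glutathione synthesis starts with glutamate-cysteine ligase, whose catalytic subunit is encoded by Gclc and whose modifier subunit by Gclm. Gclc measured 65.1 and 51.5 RPM in Young, 35.1 and 47.7 RPM in Old, and 55.1 and 54.2 RPM in OldAcetate. The Old libraries were lowest but far apart, with replicate 1 well under replicate 2. The Old vs Young change was -0.49 log2 as given (SE 0.16, adjusted p = 0.042) and -0.14 scaled (SE 0.14, adjusted p = 0.949). Without Old replicate 1 these became -0.28 as given (adjusted p = 0.292) and 0.13 scaled, and without Young replicate 1 the change as given was -0.33 (adjusted p = 0.395).

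Gclm measured 23.0 and 21.6 RPM at its start in Young, 19.4 and 19.5 RPM in Old, and 23.9 and 24.2 RPM in OldAcetate. The pairs were tight and, as given, the 3 groups separate, with OldAcetate highest, on 42 to 71 reads per library. On the scaled values both Old libraries lay above both Young libraries, and Old and OldAcetate overlapped. Without overlap as given, Old lay under Young at 60.2% of all regions, and OldAcetate above Old at 47.1% and above Young at 7.6%. Still the changes were small, -0.19 log2 as given for Old vs Young (SE 0.22, adjusted p = 0.507, 0.16 scaled) and 0.30 as given for OldAcetate vs Old (SE 0.22, adjusted p = 0.450, 0.06 scaled). For OldAcetate vs Young the limma change was 0.10 as given (SE 0.22, adjusted p = 0.971) and 0.21 scaled. The region past Gclm, over the start of the nucleolar gene Dnttip2, measured 18.1 and 13.9 RPM in Young, 9.24 and 9.94 RPM in Old, and 17.5 and 14.2 RPM in OldAcetate. It had the second largest OldAcetate to Old ratio, 165%, with a change of 0.69 log2 as given (adjusted p = 0.161) and 0.45 scaled (SE 0.24, adjusted p = 0.824).

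Txnrd1 encodes the cytosolic thioredoxin reductase, which keeps thioredoxin reduced with NADPH. Its internal region measured 62.8 and 57.6 RPM in Young, 52.2 and 52.1 RPM in Old, and 62.5 and 58.0 RPM in OldAcetate. As given, OldAcetate lay within the range of Young, and Old was separate and lower. On the scaled values both Old libraries lay above both Young libraries. The Old vs Young change was -0.20 log2 as given (SE 0.16, adjusted p = 0.337) and 0.15 scaled (SE 0.13), so its sign depended on the scale.

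The intergenic region past the end of Txnrd1 was the 1 coded Y and had the fewest reads, 11 and 14 in Old, 32 and 26 in Young, and 29 and 23 in OldAcetate. It measured 10.5 and 10.6 RPM in Young, 5.08 and 5.57 RPM in Old, and 9.74 and 9.59 RPM in OldAcetate. Old stood well under both other groups, with a mean 50.4% of that of Young, and the OldAcetate mean was 182% of the Old mean. These were the most negative change for Old vs Young and the most positive one for OldAcetate vs Old among the 14 regions, -0.93 log2 (SE 0.32, adjusted p = 0.0504) and 0.80 log2 (SE 0.32, adjusted p = 0.184) as given. On the scaled values they were -0.58 (SE 0.31, adjusted p = 0.894) and 0.57 (SE 0.31, adjusted p = 0.824). Of all regions, 2.20% had a lower scaled change than the first, and 97.9% a lower one than the second. The code was made from the same libraries, so low Old values at a region coded Y are not independent of it. The code does not name AC, although OldAcetate lay close to Young here. Over the 1139 regions coded Y the median RPM was 9.76 in Young, 6.42 in Old and 7.12 in OldAcetate.

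The last group removes superoxide and hydrogen peroxide. Sod1, the cytosolic copper and zinc superoxide dismutase, measured 20.1 and 17.2 RPM in Young, 12.9 and 14.3 RPM in Old, and 17.8 and 23.4 RPM in OldAcetate. As given, Old was separate and lower, and OldAcetate replicate 2 was the highest of the 6. On the scaled values Old and Young overlapped. The Old vs Young change was -0.43 log2 as given (SE 0.24, limma adjusted p = 0.186) and -0.08 scaled (SE 0.22, adjusted p = 0.984). The OldAcetate vs Old change was 0.57 log2 as given (SE 0.24, adjusted p = 0.199) and 0.33 scaled (SE 0.22, adjusted p = 0.870), the latter ranging from 0.12 without OldAcetate replicate 2 to 0.53 without OldAcetate replicate 1.

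Sod2, the manganese superoxide dismutase of mitochondria, measured 18.4 and 13.1 RPM in Young, 16.2 and 12.7 RPM in Old, and 20.5 and 16.7 RPM in OldAcetate. The Young and Old libraries overlapped, and replicate 1 was above replicate 2 in each group. Its Old vs Young change was the nearest to 0 among the 14 as given, -0.11 log2 (SE 0.25, adjusted p = 0.751), and the highest when scaled, 0.24 (SE 0.23, adjusted p = 0.944). The sign of the change as given turned with single libraries, to 0.13 without Young replicate 1 and 0.058 without Old replicate 2, and it was -0.35 without Young replicate 2.

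Cat encodes catalase, the peroxisomal enzyme that splits hydrogen peroxide. Its start region measured 21.1 and 21.6 RPM in Young, 14.3 and 17.5 RPM in Old, and 22.5 and 22.9 RPM in OldAcetate. As given, Old was lowest and OldAcetate highest, without overlap between the 3 groups. OldAcetate lay above Young without overlap at 7.6% of all regions as given. On the scaled values Old and Young overlapped, and OldAcetate lay above both. The Old vs Young change was -0.42 log2 as given (SE 0.22, limma adjusted p = 0.177) and -0.07 scaled (SE 0.21, adjusted p = 0.987). The OldAcetate vs Old change was 0.51 log2 as given (SE 0.22, adjusted p = 0.220) and 0.27 scaled (SE 0.21, adjusted p = 0.895). For OldAcetate vs Young the limma change was 0.09 as given (SE 0.22, adjusted p = 0.977) and 0.20 scaled. The region inside the gene ran differently, at 17.1 and 15.9 RPM in Young, 8.78 and 11.5 RPM in Old, and 12.1 and 13.3 RPM in OldAcetate. Here OldAcetate lay between Old and Young and under both Young libraries. The difference between the start and the internal region was not tested.

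**Figure D4:**
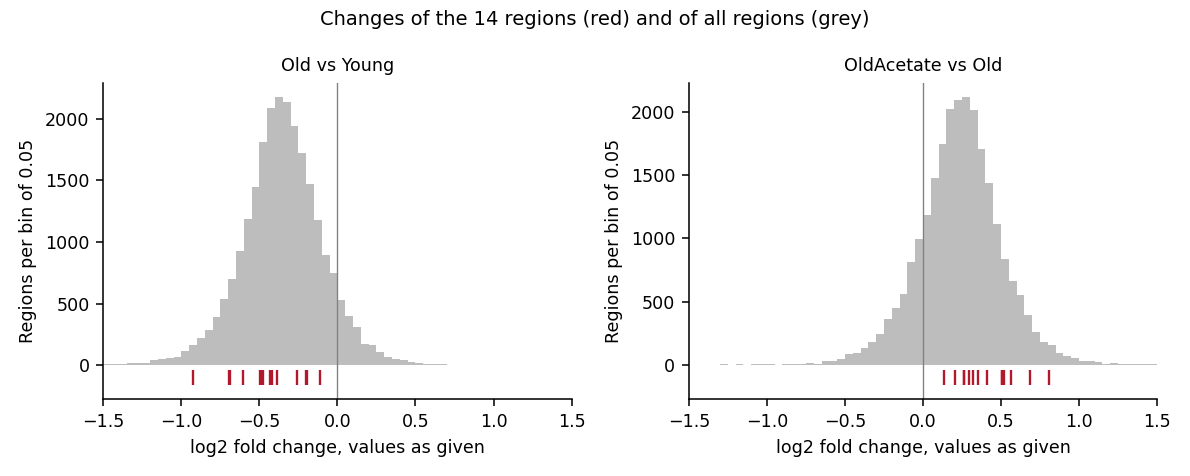
Number of regions per bin of 0.05 log2 fold change for all 24431 regions (grey), values as given, with the 14 regions as red ticks, for Old vs Young and OldAcetate vs Old. The ticks spread over the body of each grey distribution, with medians of -0.45 and 0.38 log2 against -0.35 and 0.24 log2 for all regions.

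The wider pathway was read from a list of 49 further genes for NRF2 partners, glutathione, thioredoxin, NADPH, haem and iron, superoxide and detoxification. Of these, 48 had a region, 76 regions in all, and the peroxiredoxin gene Prdx4 had none. On the scaled values 0 of the 76 passed in any of the 3 comparisons (limma), with 1, 2 and 5 at an unadjusted p under 0.05 for Old vs Young, OldAcetate vs Old and OldAcetate vs Young (5.54%, 6.24% and 5.08% of all regions), and edgeR with RLE factors called 0 in each. The median scaled changes were 0.01, 0.03 and 0.01 log2. On the values as given 9 of the 76 were called lower in Old than in Young, at Abcc1, Maff, Me1, Nfe2l1, Osgin1, Prdx2, Taldo1, Txnrd2 and Ugdh, and edgeR without factors called the same 9. These 9 are 11.8% of the list, beside 9.5% of all regions. At Me1 the call was at a region other than the one over its start, which did not pass (limma adjusted p = 0.123).

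Examples from that list show the spread. The region of Nfe2l1, a relative of NRF2, measured 44.4 and 44.9 RPM in Young, 30.5 and 29.8 RPM in Old, and 45.0 and 40.5 RPM in OldAcetate. That of Osgin1, an oxidative stress induced growth inhibitor, measured 109 and 78.0 RPM in Young, 66.1 and 58.1 RPM in Old, and 86.7 and 82.2 RPM in OldAcetate. At both genes Old was separate from Young, with changes as given of -0.56 (adjusted p = 0.034) and -0.57 log2 (adjusted p = 0.013) that shrank to -0.21 and -0.22 when scaled. With 1 region taken per gene, the one over its start or else its highest, the lowest and highest pairs of scaled changes were read for the 48 genes. For Old vs Young these were the iron exporter Slc40a1 (-0.51) and the pentose phosphate enzyme Taldo1 (-0.48) on one side, and Gpx3 (0.35) and Gsta4 (0.37), which use glutathione, on the other. For OldAcetate vs Old they were Gpx3 (-0.37) and the small MAF gene Mafk (-0.26) against the mitochondrial peroxiredoxin Prdx3 (0.43) and Gpx7 (0.45). For OldAcetate vs Young they were Taldo1 (-0.45) and mitochondrial thioredoxin Txn2 (-0.27) against biliverdin reductase Blvra (0.40) and Prdx1 (0.45). None of these scaled values passed the test. Their SE ran from 0.14 at Mafk to 0.40 at Slc40a1, a low region with 4.62 and 3.18 RPM in Old, and was 0.32 at Blvra. Over the 76 regions, further regions of the same genes included, the scaled changes ran from -0.51 to 0.78, from -0.42 to 0.47 and from -0.59 to 0.55 log2 in the 3 comparisons.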

How the data were processed

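The authors deposited 1 table of H3ac CUT&RUN values, with 24431 regions and 1 column per library. Per the labels, Bowtie2, Picard and mm10 were used, and other settings are not given in the sources used here. The deposited values are named as RPKM but are RPM: in each column 100% were whole multiples of 1 step (tolerance 0.01), whatever the region length, so reads and library totals were recovered. Totals were 2163351 to 3039481 reads. The 11 to 384 reads behind a value give a counting error of 30.2% to 5.10%.

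The 10 genes and the lists were chosen with earlier results of these data known. The text names the 10 genes with every library. Of the pathway list, with 1 region per gene (over the gene start, else the highest), it names those past the threshold, else the 2 highest and 2 lowest scaled changes in a comparison, and the 9 genes called on the values as given were named after their values were seen.

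Changes were tested with limma 3.58.1 (R 4.3.3) on log2(RPM + 0.5), which understates changes of low regions, scaled by the median deviation of each library. All 6 libraries shared 1 fit of group means (eBayes with trend and robust), with Benjamini-Hochberg adjustment over 24431 regions and a threshold of 0.05. edgeR 4.0.16 (quasi-likelihood) was run on the recovered reads. The fits were tested on simulated data. Regions were annotated with GENCODE vM21, and sequences came from GRCm38.p6. Alternatives were the values as given, quantile normalization, pseudocounts of 0.1 and 1, a threshold of 0.01, a fit without the lowest 25% of regions, a fit of the compared libraries alone, eBayes without trend and robust, a replicate block, omission of each library, gene bodies with no extension and regions over start sites alone. Omission on the values as given was added after seeing the data.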

Additional observations from a re-analysis of the deposited data

How the results depend on the processing

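The number of the 14 regions called stayed at 0 in each comparison under each scaled alternative and with each library left out. Without scaling, and with edgeR without factors, 2 were called for Old vs Young (Nfe2l2 and Gclc), and 0 to 3 when each library was left out of the values as given. The median change of the 14 regions was -0.45 log2 without scaling and -0.47 with edgeR without factors for Old vs Young, 0.38 and 0.39 for OldAcetate vs Old, and -0.0045 and -0.031 for OldAcetate vs Young. These settings keep the shift shared by all regions. Leaving out libraries moved the scaled median from -0.23 (without Old replicate 2) to 0.046 (without Old replicate 1) for Old vs Young, and from 0.035 (without Old replicate 1) to 0.23 (without Old replicate 2) for OldAcetate vs Old. On the values as given, the median for Old vs Young was -0.33 and -0.57 without Young replicate 1 and 2, and -0.36 and -0.52 without Old replicate 1 and 2. For OldAcetate vs Old it was 0.33 and 0.40 without Old replicate 1 and 2, and 0.40 and 0.44 without OldAcetate replicate 1 and 2. For OldAcetate vs Young it was 0.091 and -0.15 without Young replicate 1 and 2, and -0.073 and -0.044 without OldAcetate replicate 1 and 2.

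Of 510 values of the 30 changes of the 10 genes under the alternatives, 473 kept their sign and side of the threshold, 4 came to pass it (Nfe2l2 and Gclc, the 2 unscaled settings) and 33 changed sign. Part of the 473 was fixed in advance. The threshold of 0.01, the replicate block and eBayes without trend and robust cannot change a sign, and the threshold of 0.01 cannot add a call. For Old vs Young the sign changed without scaling and with edgeR without factors at Hmox1 (-0.26 and -0.29), Gclm (-0.19 and -0.20), Txnrd1 (-0.20 and -0.21) and Sod2 (-0.11 and -0.15). For OldAcetate vs Old it did so at Hmox1 (0.13 and 0.14) and Txnrd1 (0.20 and 0.21), and for OldAcetate vs Young at Gclc (-0.082 and -0.10). Quantile normalization gave -0.0030 for Nfe2l2 in OldAcetate vs Old. Leaving out each library, the scaled change for Old vs Young ranged from -0.12 to 0.044 at Nfe2l2, -0.046 to 0.23 at Hmox1, -0.42 to 0.13 at Gclc, -0.21 to 0.048 at Sod1 and -0.27 to 0.13 at Cat. For OldAcetate vs Old it ranged from -0.055 to 0.11 at Nfe2l2, -0.15 to 0.21 at Keap1, -0.11 to 0.45 at Gclc, -0.0045 to 0.12 at Gclm, -0.093 to 0.026 at Txnrd1 and -0.015 to 0.25 at Sod2. For OldAcetate vs Young it ranged from -0.037 to 0.018 at Nfe2l2, -0.15 to 0.13 at Hmox1 and -0.057 to 0.12 at Gclc. The cause was not tested.

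Libraries with the same replicate number did not deviate together (Pearson's r across regions of same-numbered deviations from the group means 0.0093, -0.03 and -0.04). With the replicate number as a block 0 of the 14 regions were called in each comparison, and the block changed no other call or median. Each group holds both replicate numbers, so the block cannot change a fitted change, and the unchanged medians were fixed in advance. With 2 libraries a group, the SE of a scaled change for Old vs Young ran from 0.10 log2 at Nfe2l2, the region with the most reads, to 0.31 log2 past Txnrd1, the region with the fewest.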
